A study of Mus musculus with 2 samples.

Results

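The nuclear genome encodes most subunits of the 5 oxidative phosphorylation complexes, and 86 such genes were followed here in immune cells and residual tumour cells from mouse lungs with melanoma metastases. Members were taken by symbol from the 55357 features of the deposited matrices: names that start with Ndufa, Ndufb, Ndufc, Ndufs, Ndufv, Uqcr, Cox4i, Cox5, Cox6, Cox7, Cox8 or Atp5, plus Sdha, Sdhb, Sdhc and Sdhd, without pseudogene symbols ending in -ps and without the assembly factors named Ndufaf. Of 92 symbols that matched, 86 had at least 20 UMIs (unique molecular identifiers, 1 per captured RNA molecule) in the C435A and WT libraries together. The other 6 were Cox7b2, Cox8c, Ndufs6b, Ndufb11b, Ndufa11b and a second identifier for Atp5o. The 86 genes comprise 38 of complex I, 4 of complex II, 8 of complex III, 19 of complex IV and 17 of complex V.

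B16F10, a mouse melanoma line, was grown as lung metastases in C57 mice, and live CD45+ 7-AAD- cells were sorted for single-cell RNA sequencing. CD45 sits on the surface of white blood cells. The injected tumour line carried IRF7-C435A, in which a cysteine of this interferon-inducing transcription factor is replaced by alanine, or wild-type IRF7. The immune cells were the host's own, so the genotype names the tumour and not the cells described, apart from the melanoma gate. There was 1 library per group (C435A and WT), so no difference has a replicate check, no test was made, and intervals cover counting error only. The number of animals behind each library is not given in the sources used here.

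Complexes I and II pass electrons from NADH and succinate to ubiquinone, complex III passes them on to cytochrome c, and complex IV reduces oxygen. Complex V, the ATP synthase, uses the proton gradient that complexes I, III and IV build. Complex II is made wholly from nuclear genes, whereas the other complexes also need subunits read from mitochondrial DNA, so their assembly draws on both genomes. Naive T cells are quiescent, and T cell activation and clonal expansion are known to be accompanied by mitochondrial biogenesis.

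After filtering and removal of doublets, 9427 cells with 50269416 UMIs were kept in the C435A library and 9199 cells with 46523362 UMIs in the WT library. Median depth was 3200 and 2684 UMIs per cell. Cells were assigned to gates by UMIs of marker genes, which placed 8581 C435A-library and 8314 WT-library cells. In each gate the UMIs of a gene were summed over cells and scaled to a gate total of 1000000, which gives CPM. The labels call the cell type melanoma cell, but cells with at least 20 UMIs of Pmel, Mlana, Dct, Tyrp1 and Tyr numbered 57 in the C435A library and 99 in the WT library. In this melanoma gate Ptprc, which encodes CD45, was at 39.1 CPM and 26.2 CPM, against 181 to 2429 CPM in the other gates. Irf7 had 4 and 7 UMIs there, so the tumour genotype could not be checked. The libraries shared 24 barcodes, of which 24 and 23 were among the kept cells. The same 5 melanoma markers summed to 14.1 to 52.8 CPM in the immune cell type gates of the C435A library and 34.5 to 131 CPM in those of the WT library, and the part of tumour RNA in the ratios of immune gates was not tested.

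Tumour cells devoted the highest share of their UMIs to these subunits, and neutrophils the lowest. The share was 5.23% in melanoma-gated cells of the C435A library and 5.95% in those of the WT library, against 1.08% and 1.22% in neutrophils. The log2 ratio of the highest over the lowest gate was 2.28 in both libraries. Immune gates other than neutrophils lay between 1.67% and 2.42% in the C435A library and between 1.69% and 2.25% in the WT library. The melanoma gate was the highest of 11 gates in both libraries for 74 of the 86 members, and neutrophils were the lowest for 59. How often other genes have these extremes is not given here, so the counts are not shown to be particular to the subunits.

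Gates in the middle of the order changed places between libraries. CD8 T cells ranked second in the C435A library with 2.42% of UMIs and eighth in the WT library with 1.86%. CD4 T cells had 2.18% and 1.88%, and plasma cells 2.13% and 1.69%. Alveolar macrophages, which take up surfactant lipid in the airspaces, had 2.05% and 2.25%. Another total left out ribosomal protein, mitochondrially encoded, immunoglobulin and haemoglobin genes. With it, plasma, CD8 T and CD4 T cells followed the melanoma gate in that order in both libraries. The change of place of CD8 and CD4 T cells was thus not seen with that total. The melanoma and neutrophil gates kept the first and the last place under each of the 4 alternatives tried.

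**Figure D1:**
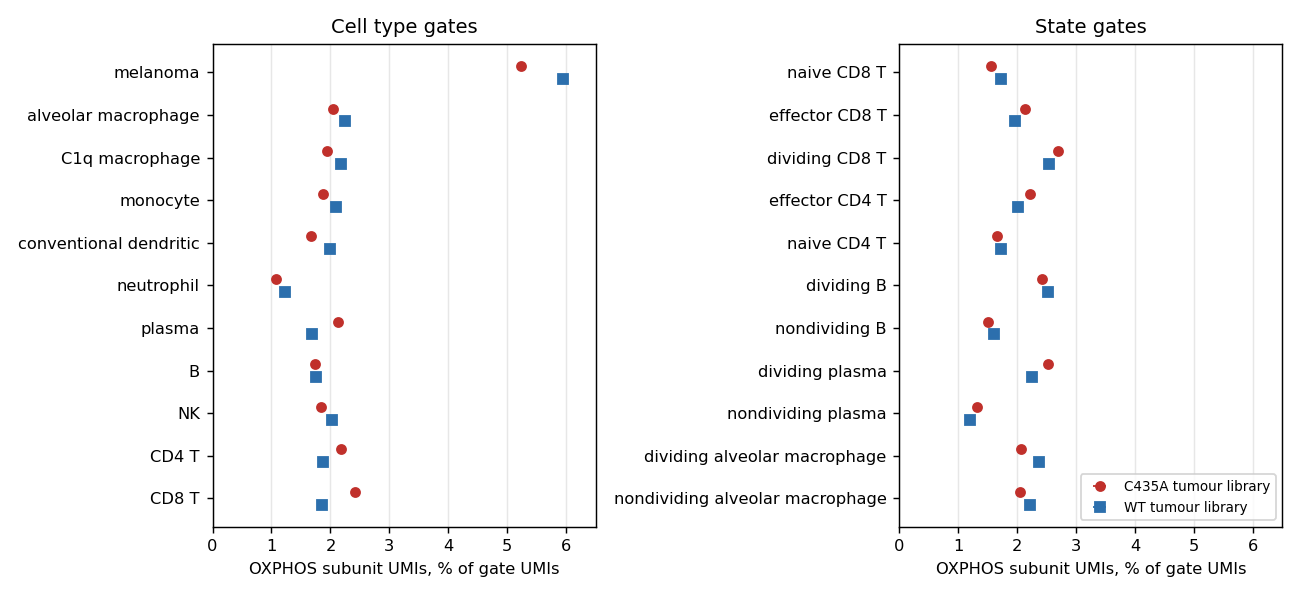
Percentage of all UMIs of a gate that belong to the 86 subunit genes, in cell type gates (left) and in state gates inside them (right), for the C435A (circles) and WT (squares) tumour libraries. The melanoma gate stands at 5.23% and 5.95%, neutrophils at 1.08% and 1.22%, and dividing T, B and plasma gates lie above their naive or nondividing partners.

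In CD8 T cells, subunit transcripts took a larger share of UMIs in the C435A library. Of 81 members with at least 20 UMIs, 18 were higher by 1.5-fold or more and 3 were lower, where 17.5% and 22.1% of 12469 genes were higher and lower. The median log2 ratio of CPM, C435A over WT, was 0.41 over the members and -0.05 over all genes. Medians were above 0 in every complex: 0.33 in complex I, 0.55 in complex II, 0.37 in complex III, 0.55 in complex IV and 0.44 in complex V.

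Complex IV held the member whose interval lay farthest above 0, Cox5a, a subunit on the matrix side of the enzyme. Cox5a had 10876 UMIs and 828 CPM in C435A-library CD8 T cells, against 2635 UMIs and 392.3 CPM in those of the WT library (log2 ratio 1.08, 95% interval 1.02 to 1.14). Its partner subunit Cox5b had 583 CPM and 337 CPM (0.79, 0.72 to 0.86). Ndufa4, which was first assigned to complex I and is now placed with complex IV, had 879 CPM and 527 CPM (0.74, 0.68 to 0.79). These 3 genes were all higher in the C435A library by more than 1.5-fold. The tissue isoforms Cox6b2 and Cox7a1, both at low levels, complete the 5 members of complex IV that passed. Cox6b2 had 3.12 CPM and 1.34 CPM, on 41 UMIs and 9 UMIs. Cox7a1 had 2.13 CPM and 1.19 CPM, on 28 UMIs and 8 UMIs. For each of these isoforms the CPM intervals of the libraries overlapped. Such an overlap does not show that the interval of the ratio includes 0.

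Complex I, the largest complex, gave 7 members higher and 2 lower of 38. The count of 7 was near the share of all genes higher in this gate, given above, and is not particular to complex I. Ndufb7, an accessory subunit that faces the intermembrane space, had 391 CPM in the C435A library and 214 CPM in the WT library (0.87, 0.78 to 0.95). Ndufa11, an accessory membrane subunit, had 212 CPM and 127 CPM (0.74, 0.63 to 0.85). The other 5 were Ndufb8, Ndufa8, Ndufs8, Ndufb9 and Ndufc2, with log2 ratios of 0.63 to 0.72. The median was 0.31 over the core subunits, which carry the redox centres, and 0.33 over the accessory ones.

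Complex II was split between its subunits. Sdhb, the iron-sulfur protein, had 176 CPM in the C435A library against 101 CPM in the WT library (0.80, 0.67 to 0.92), and Sdhd, a membrane anchor, had 106 CPM and 62.8 CPM (0.76, 0.60 to 0.92). The other anchor, Sdhc, had 66.9 CPM and 52.9 CPM (0.34, 0.16 to 0.52). Sdha, the flavoprotein that oxidises succinate, had 124 CPM and 129 CPM, and its interval of -0.17 to 0.07 included 0.

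In complex III, 1 of 8 members passed, the Rieske iron-sulfur protein gene Uqcrfs1 (0.61). In complex V, 3 of 17 passed: Atp5a1, the alpha subunit of the catalytic head (0.61), Atp5h, of the peripheral stalk (0.60), and Atp5g3 (0.68). These counts of complexes III and V were near or below the share of all genes higher in this gate, given above. Atp5g1, Atp5g2 and Atp5g3 encode the same mature c subunit of the proton-driven ring from separate loci. Atp5g3 had 451 CPM in C435A-library CD8 T cells and 282 CPM in WT-library ones, whereas Atp5g1 had 287 CPM and 293 CPM and Atp5g2 10.3 CPM and 11.9 CPM. Of the genes named by their call alone, Ndufb8, Ndufa8, Ndufs8, Ndufc2, Uqcrfs1, Atp5a1 and Atp5h were picked after their values were seen.

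A few members went the other way. Cox7a2l, whose protein helps to join complexes III and IV into supercomplexes, had 5790 UMIs and 441 CPM in C435A-library CD8 T cells, against 4464 UMIs and 665 CPM in those of the WT library (-0.59, -0.65 to -0.54). Ndufb4, a complex I accessory subunit, had 224 UMIs and 17.1 CPM against 225 UMIs and 33.5 CPM (-0.97, -1.25 to -0.70). The third was Ndufb4c, a near copy of Ndufb4 at 2.44 CPM and 3.72 CPM, and because reads can be split between such copies both counts are uncertain. Uqcrh, the hinge protein of complex III, had 702 CPM and 818 CPM (-0.22, -0.27 to -0.17), which is short of 1.5-fold.

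The makeup of the CD8 T gate differed between the libraries. Dividing cells, with at least 3 UMIs of 8 cell cycle genes such as Mki67 and Top2a, were 38.8% of the gate in the C435A library and 2.996% in the WT library. They held 63.3% and 7.38% of its UMIs. Naive cells, read from markers that include Ccr7, Lef1 and Tcf7, were 23.4% and 61.8%. With naive, effector and dividing cells weighted alike, the median log2 ratio of the members was 0.02 and no member was higher by 1.5-fold.

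Ribosomal protein genes took 20.3% of the UMIs of the CD8 T gate in the C435A library and 31.4% in the WT library. Leaving out ribosomal protein, mitochondrially encoded, immunoglobulin and haemoglobin genes from the totals moved every ratio of this gate by -0.23, which gave a member median of 0.18, 4 members higher and an all-gene median of -0.28. The distance of 0.46 between member and all-gene medians stayed, since the move is the same for every gene. With each cell weighted alike, the member median was 0.25 and 5 members were higher.

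Promoter sequence was read for 69 of the 86 members in RefSeq windows of 300 bases, 250 before and 50 after a gene's start, on mouse build GRCm38.p6. Motifs were searched on both strands. GCATGCGC, a core of the binding site of NRF1, a factor known to control respiratory genes, was in 10 of 74 member windows (13.5%) and in 2.71% of 32851 windows of all genes. CCGGAAG, an ETS core of the kind bound by GABP, was in 17 (23.0%) and 8.86%. AAGATGGC, a YY1 core, was in 10 (13.5%) and 2.75%. CCAAT was in 30 (40.5%) and 37.4%. The 100-base stretches below show Sdhb, Ndufa11 and Ndufa8, which were higher in C435A-library CD8 T cells, then Atp5l, which carries both motifs and was not, and Cox5a and Ndufb4, whose intervals lay farthest above and below 0 in that gate, which hold neither motif in the stretch shown. Capitals mark matches to GCATGCGC or CCGGAAG on either strand, and Ndufa11 has 2 overlapping matches. Stretches end at the base before the start that RefSeq gives, except that of Atp5l, which runs from 240 to 141 bases before it. The gene positions given further on come from the GENCODE annotation of GRCm38, whose gene ends differ from the RefSeq starts, so that most of the Ndufb4 stretch lies inside the GENCODE gene and that of Cox5a ends short of it.
Sdhb, chr4:140961171-140961270, plus strand: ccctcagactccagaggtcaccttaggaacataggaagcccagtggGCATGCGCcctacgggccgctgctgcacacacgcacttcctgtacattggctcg
Ndufa11, chr17:56717662-56717761, plus strand: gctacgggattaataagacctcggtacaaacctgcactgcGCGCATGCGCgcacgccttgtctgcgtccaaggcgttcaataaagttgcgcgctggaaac
Ndufa8, chr2:36049339-36049438, minus strand: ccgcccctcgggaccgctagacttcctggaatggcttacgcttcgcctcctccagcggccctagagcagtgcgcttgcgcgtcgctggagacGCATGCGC
Atp5l, chr9:44920883-44920982, minus strand: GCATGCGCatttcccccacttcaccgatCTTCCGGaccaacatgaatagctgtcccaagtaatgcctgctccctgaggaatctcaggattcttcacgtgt
Cox5a, chr9:57521132-57521231, plus strand: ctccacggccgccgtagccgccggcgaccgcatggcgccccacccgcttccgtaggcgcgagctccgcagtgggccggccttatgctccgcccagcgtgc
Ndufb4, chr16:37654369-37654468, minus strand: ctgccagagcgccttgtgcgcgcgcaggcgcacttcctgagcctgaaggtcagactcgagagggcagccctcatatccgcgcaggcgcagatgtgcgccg

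Ratios of members with and without a motif overlapped. In CD8 T cells the median log2 ratio, C435A over WT, was 0.53 over 10 members with the NRF1 core and 0.41 over 58 without it. For the ETS core it was 0.52 over 17 and 0.41 over 51, for the YY1 core 0.43 over 10 and 0.42 over 58, and for CCAAT 0.41 over 29 and 0.43 over 39. Members with the NRF1 core ran from -0.28 for Atp5l to 0.80 for Sdhb, so their range overlapped that of the others. These matches are a description of letters and were not tested as binding sites.

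Inside the CD8 T gate, the subunits stood higher in dividing and effector cells than in naive cells in both libraries. Naive cells held 1.56% member UMIs in the C435A library and 1.73% in the WT library, effector cells, read from granzymes, Ccl5, Nkg7, Cxcr6 and Klrg1, 2.13% and 1.97%, and dividing cells 2.70% and 2.54%. After each cell was thinned to 1000 UMIs, the median cell had 1.5% and 1.7% in the naive gate, 2.0% and 1.9% in the effector gate, and 2.6% and 2.35% in the dividing gate. Depth differed between these gates, with medians of 2934 and 3108 UMIs per naive cell and 8725 and 7040 UMIs per dividing cell.

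Dividing cells were set against naive cells within each library. In the C435A library 56 of 81 members were higher by 1.5-fold or more and 2 lower, where 28.7% and 27.2% of all genes were. In the WT library, with 58 dividing cells, 42 of 78 were higher and 2 lower, where 25.4% and 23.3% of all genes were. The median log2 ratio of dividing over naive was 0.82 in the C435A library and 0.61 in the WT library, against 0.03 and 0.06 over all genes. By complex the medians in the C435A library were 0.69, 1.07, 0.92, 1.07 and 0.95 for complexes I to V, and in the WT library 0.53, 0.57, 0.56, 0.71 and 0.63.

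The state ratios depend on the total used. Ribosomal protein genes held 17.1% and 21.2% of UMIs in dividing cells, and 33.1% and 33.7% in naive cells, of the C435A and WT libraries. Without ribosomal protein and the other 3 classes of genes in the total, the C435A median was 0.50 with 36 members higher, and in the WT library 14 were higher. The same change moved the all-gene medians to -0.29 in the C435A library and -0.20 in the WT library. Shares of all genes with this total are not given here, so the counts of 36 and 14 are not shown to be particular to the subunits.

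Cox5a, Cox5b and Ndufb7 were among the members with the largest difference in both libraries. Cox5a stood at 1013 CPM in dividing, 613 CPM in effector and 324 CPM in naive cells of the C435A library. In the WT library it was at 819 CPM, 436 CPM and 315 CPM in the same states. Both libraries thus had the same order, with dividing over naive ratios of 1.64 (1.52 to 1.77) in the C435A library and 1.38 (1.21 to 1.54) in the WT library. Cox5b gave 1.62 and 1.01, and Ndufb7 1.43 and 1.12.

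Cox7a2l ran in the opposite order in both libraries. It had 317 CPM in dividing, 610 CPM in effector and 731 CPM in naive cells of the C435A library, and 413 CPM, 593 CPM and 723 CPM in the WT library. Dividing over naive gave -1.20 (-1.30 to -1.10) and -0.81 (-1.02 to -0.60). Naive cells of the libraries differed by 0.02 on the log2 scale for this gene, with an interval of -0.08 to 0.12. Effector cells differed by 0.04 (-0.07 to 0.15). Dividing cells were lower in the C435A library, by -0.38, the lowest value of this gene over 14 gates. Cox7a2l was 1 of the 2 members lower by 1.5-fold in each library. The other was Ndufb4 in the C435A library, with 123 UMIs and 14.8 CPM in dividing and 44 UMIs and 27.6 CPM in naive cells (-0.90, -1.40 to -0.37), against 30.3 CPM and 30.1 CPM in the WT library. The WT library had Ndufs1, a core subunit of complex I, on 12 UMIs in dividing and 145 UMIs in naive cells (-0.60, -1.58 to 0.25). Uqcrh gave -0.27 and -0.15, and Ndufa6, a complex I accessory subunit, -0.31 and -0.19, all short of 1.5-fold, and the WT intervals of both reached 0 or above.

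Effector cells stood between the other states for most members. Effector over naive gave 24 members higher and 1 lower of 78 in the C435A library, where 18.9% and 16.2% of all genes were, with a median of 0.45. In the WT library it gave none of 79 in either direction, where 9.95% and 10.0% of all genes were, with a median of 0.19. The C435A median was 0.22 with 7 members higher when ribosomal and the other 3 classes left the total. Sdha had 98.2 CPM in effector and 122 CPM in naive cells of the C435A library (-0.31, -0.58 to -0.05), and in the WT library 137 CPM and 126 CPM.

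Between the libraries, each state taken alone gave small ratios of C435A over WT. The member median was -0.15 in naive cells, 0.10 in effector cells and 0.10 in dividing cells, against 0.00, -0.00 and -0.05 over all genes. Naive cells had no member of 78 higher by 1.5-fold and 2 lower, where 5.49% and 7.72% of all genes were. Effector cells had 1 higher and 3 lower of 78, where 10.1% and 12.5% were, and dividing cells 3 higher and 4 lower of 81, where 12.2% and 19.4% were. The effector median was -0.04 without ribosomal and the other 3 classes in the total, which moved every ratio of that gate by -0.14 and left 0 members higher and 5 lower. In dividing cells 6 were higher with each cell weighted alike and 0 with doublets kept. Effector cells of the C435A library held 430 CPM of haemoglobin genes and those of the WT library 31.5 CPM, and the part of red cell RNA in these ratios was not tested.

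**Figure D2:**
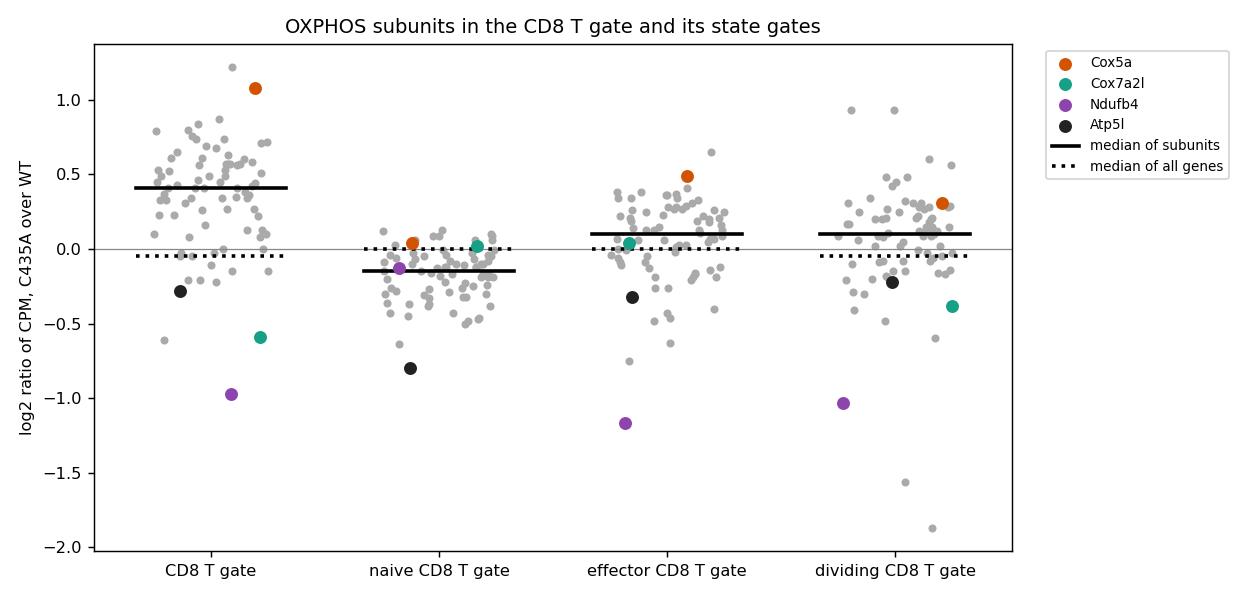
Log2 ratio of CPM, C435A over WT, of each subunit with at least 20 UMIs (points) in the CD8 T gate and in its naive, effector and dividing gates. Solid lines mark the member median of 0.41, -0.15, 0.10 and 0.10, dotted lines the all-gene median. Cox7a2l lies at -0.59 in the whole gate, at 0.02 in naive cells and at -0.38 in dividing cells. Ndufb4 lies at -0.97 in the whole gate and at -1.17 in effector cells.

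Dividing B cells also stood above their resting partners, whereas alveolar macrophages differed little by this measure. In B cells, dividing over nondividing gave 51 members higher and 2 lower of 78 in the C435A library, where 22.7% and 27.4% of all genes were. In the WT library it gave 50 higher and 1 lower of 78, where 23.9% and 26.9% were. The medians were 0.79 and 0.75. Among alveolar macrophages, with 86 dividing cells in each library, it gave 1 higher and 0 lower of 80 in the C435A library (14.9% and 10.1% of all genes) and 0 and 0 of 81 in the WT library (12.3% and 11.0%), with medians of 0.03 and 0.11. The difference between these cell types was not tested.

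Dividing CD4 T cells could be compared in the C435A library, where 203 cells were found, whereas the WT library had 38, under the minimum of 50. Dividing over naive gave 40 members higher and 1 lower of 78, where 25.7% and 22.3% of all genes were, with a median of 0.60. Without ribosomal and the other 3 classes in the total, 22 were higher and 2 lower, with a median of 0.37. Cox5a had 853 CPM in dividing and 356 CPM in naive CD4 T cells (1.26, 1.08 to 1.45). Cox7a2l had 361 CPM and 630 CPM (-0.80, -0.98 to -0.63), the same direction as in CD8 T cells.

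In plasma cells most genes shifted together. Dividing over nondividing gave 66 members higher and 1 lower of 79 in the C435A library, where 62.5% and 5.41% of all genes were. In the WT library it gave 66 higher and 0 lower of 78, where 56.7% and 8.89% were. Member medians of 1.02 and 0.92 stood beside all-gene medians of 0.84 and 0.73. Without immunoglobulin and the other 3 classes in the total, the member medians were 0.28 and 0.27 and 15 members were higher in each library. Ndufa1, an accessory subunit of complex I, ran against the rest, with 238 CPM in dividing and 366 CPM in nondividing plasma cells of the C435A library (-0.62) and 300 CPM and 343 CPM in the WT library (-0.19).

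Cox7a2l, Uqcrh and Ndufa6, all below 0 in dividing CD8 T cells, were lower in dividing B cells too. Ndufa6 had 139 CPM in dividing and 226 CPM in nondividing B cells of the C435A library (-0.70, -0.92 to -0.49), and 148 CPM and 230 CPM in the WT library (-0.64, -0.88 to -0.40). Cox7a2l gave -0.22 and -0.31, and Uqcrh -0.21 and -0.21, all with intervals below 0. Ndufs1 ran higher there, with 58.1 CPM in dividing and 36.1 CPM in nondividing B cells of the WT library (0.69, 0.25 to 1.10). On the scale of all UMIs, these genes were higher in dividing plasma cells of both libraries. Cox7a2l was higher by 1.04 and 1.27, Uqcrh by 0.72 and 0.76, and Ndufa6 by 0.63 and 0.67. The all-gene medians of this contrast were 0.84 and 0.73, and Ndufa6 lay below them in both libraries, Uqcrh in the C435A library. Leaving ribosomal protein, mitochondrially encoded, immunoglobulin and haemoglobin genes out of the total moved every ratio by -0.74 and -0.65. The ratios of Uqcrh and Ndufa6 were near the size of that move, so they show no clear reversal. Uqcr10, a small subunit of complex III, had 381 CPM in dividing and 163 CPM in nondividing B cells of the C435A library (1.22) and 456 CPM and 198 CPM in the WT library (1.21).

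**Figure D3:**
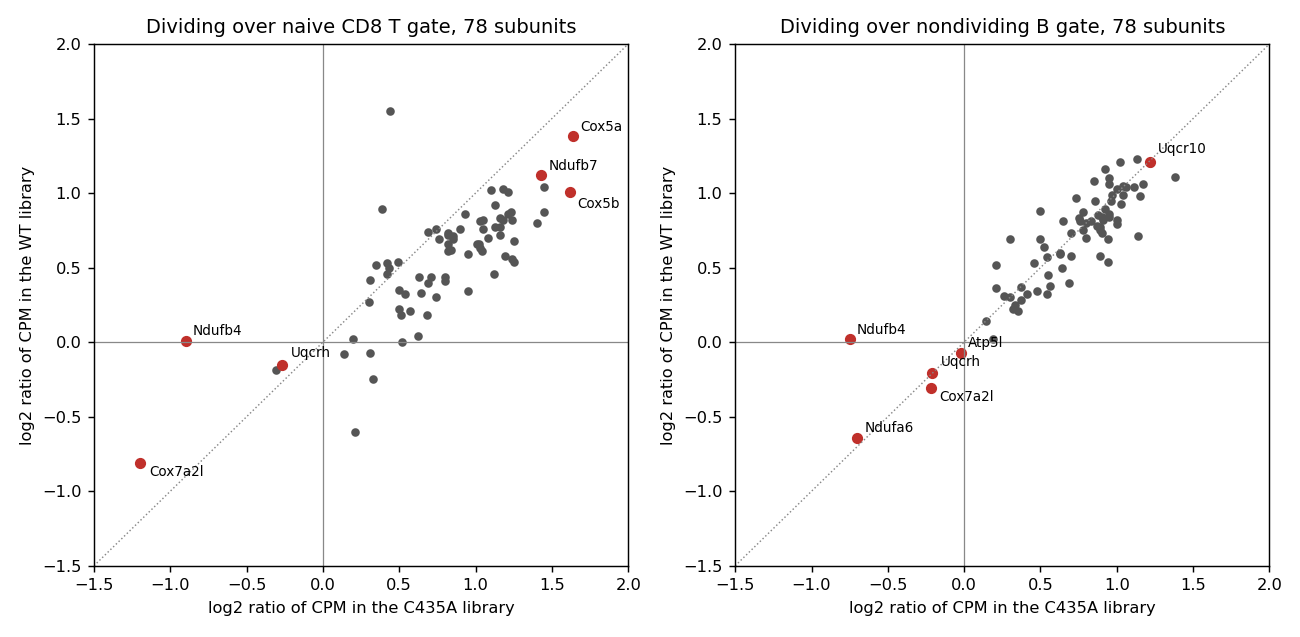
Log2 ratio of CPM of each subunit, dividing over naive CD8 T cells (left) and dividing over nondividing B cells (right), in the C435A library (horizontal axis) and the WT library (vertical axis). Points are genes with at least 20 UMIs in both contrasts, and the dotted line marks equal ratios. Cox7a2l lies at -1.20 and -0.81 in CD8 T cells, and Ndufa6 at -0.70 and -0.64 in B cells, away from the other members.

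In CD4 T cells the C435A library again had the larger share, by less. The median log2 ratio was 0.21 over the members and 0.06 over all genes, with 2 members higher and 0 lower of 78, where 15.5% and 12.6% of all genes were. Those 2 were Cox5a, with 647 CPM in the C435A library and 386 CPM in the WT library (0.75, 0.64 to 0.86), and Ndufb7, with 358 CPM and 229 CPM (0.64, 0.50 to 0.79). Leaving ribosomal and the other 3 classes out of the total moved every ratio by -0.18, and the member median was then 0.03 with no member higher. Naive cells were 35.5% of the CD4 T gate in the C435A library and 76.4% in the WT library, and dividing cells 24.7% and 5.18%.

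The CD4 states were also set apart. Naive CD4 T cells had a member median of -0.06 against 0.07 over all genes, with 0 higher and 1 lower of 78, where 11.1% and 8.66% of all genes were. That count of 1 lower was 8 with one more UMI asked for in every gate and 3 with the reduced total. Effector CD4 T cells, 265 in the C435A library and 61 in the WT library, had 0.13 against 0.00, with 6 higher and 1 lower of 77, where 17.7% and 15.5% were. Haemoglobin genes were at 21.6 CPM in the CD4 T gate of the C435A library and at 2363 CPM in that of the WT library, and their part in these ratios was not tested. Effector over naive CD4 T cells gave 20 members higher and 0 lower in the C435A library (18.0% and 13.9% of all genes), with a median of 0.43. In the WT library it gave 11 higher and 1 lower (24.8% and 17.3%), with a median of 0.21. With ribosomal and the other 3 classes out of the total, the C435A library had 9 higher and 1 lower and a median of 0.26, and the WT library 1 higher and 5 lower and a median of -0.00.

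In plasma cells, which secrete antibody, 4 members were higher in the C435A library and 1 was lower of 80, where 15.3% and 7.08% of all genes were. The member median of 0.34 stood beside an all-gene median of 0.23. TMM scaling, which centres on the genes that differ least, moved every ratio of this gate by -0.23 and gave a member median of 0.10, and leaving out immunoglobulin and the other 3 classes moved it by -0.27 and gave 0.07. Sdhd had 87.9 CPM in the C435A library and 46.9 CPM in the WT library (0.90, 0.64 to 1.18). Ndufa8, an accessory subunit of complex I, had 155 CPM and 102 CPM (0.61, 0.42 to 0.79), and Sdhc 73.6 CPM and 47.8 CPM. Dividing cells were 142 of 250 plasma cells in the C435A library and 69 of 177 in the WT library, and the median ratio was 0.14 in dividing and 0.14 in nondividing plasma cells.

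In melanoma-gated cells, the cells that bear the IRF7 change, the members were slightly lower in the C435A library. The median log2 ratio was -0.20, against -0.01 over all genes. No member of 81 was higher by 1.5-fold and 5 were lower, where 7.23% and 6.90% of all genes were. The count of 5 lower was thus near the share of all genes and is not particular to the subunits. By complex the medians ran from -0.11 in complex II to -0.31 in complex V. After thinning to 1000 UMIs, the median cell had 4.4% member UMIs among 55 cells of the C435A library and 5.6% among 97 cells of the WT library.

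The 5 lower members of the melanoma gate included Atp5l, the g subunit of the membrane part of ATP synthase, with 125 CPM in the C435A library and 243 CPM in the WT library (-0.96, -1.16 to -0.76). Ndufb4 had 68.4 CPM and 112 CPM (-0.71, -0.99 to -0.44). Cox7a1 and Cox8b, known as muscle isoforms of complex IV subunits, had 47 UMIs and 219 UMIs (-1.08, -1.56 to -0.62), and 4 UMIs and 29 UMIs. The fifth was Atp5g2, at 13.7 CPM and 21.1 CPM. The c subunit loci Atp5g1 and Atp5g3 were at 1143 CPM and 1162 CPM in the C435A library and at 1266 CPM and 1439 CPM in the WT library. With each cell weighted alike, 10 members were lower, and the share of all genes under that weighting is not given here.

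In the remaining gates member medians were at or below 0. NK cells had -0.17 with 1 higher and 6 lower of 78, where 7.18% and 8.53% of all genes were. B cells had -0.03 with 0 higher and 2 lower of 80, where 3.55% and 6.34% were. Both gates held Ndufb4 among the lower members.

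Myeloid gates had medians between -0.17 and -0.25. Neutrophils had -0.22 with 0 higher and 11 lower of 77, where 10.2% and 10.2% of all genes were. Monocytes had -0.19 with 0 and 5 of 79 (8.00% and 8.35%), and C1q macrophages -0.19 with 0 and 4 of 77 (11.4% and 11.7%). Conventional dendritic cells had -0.25 with 1 and 9 of 79 (11.7% and 11.6%). With each cell weighted alike C1q macrophages had 11 lower, and with one more UMI asked for in every gate conventional dendritic cells had 4.

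Alveolar macrophages had -0.17 beside an all-gene median of 0.12, with 1 member higher and 2 lower of 81 (11.1% and 5.08%). TMM scaling moved every ratio of alveolar macrophages by -0.11, which left the members 0.29 below all genes as before and gave 5 lower. In NK cells haemoglobin genes were at 1355 CPM in the C435A library and 8293 CPM in the WT library, and in alveolar macrophages 4 epithelial genes were at 75.7 CPM and 29.4 CPM. Their part in these ratios was not tested.

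Some myeloid differences lay in single subunits. Ndufs5, a complex I accessory subunit, had 55.3 CPM in monocytes of the C435A library and 107 CPM in those of the WT library (-0.95, -1.34 to -0.56). Ndufa11 had 42.7 CPM and 87.5 CPM in neutrophils (-1.04, -1.64 to -0.47), on 34 UMIs and 110 UMIs. Ndufa11 therefore pointed down in neutrophils and up in CD8 T cells, and this difference between gates was not tested. Cox7a2l, lower in the CD8 T gate of the C435A library, had 316 CPM and 240 CPM in alveolar macrophages (0.40, 0.29 to 0.51).

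Over 14 gates that share no cell, a number of members were lower in the C435A library in nearly every gate. These gates include states of CD8 and CD4 T cells. All come from the same C435A and WT libraries, so agreement between gates is not replication. Of 77 members with at least 20 UMIs in each gate, 20 were below 0 in 12 gates or more (26.0%) and 8 in 13 or more (10.4%), beside 3.70% and 1.38% of 4698 such genes. Ndufs5 was below 0 in all 14, with the interval below 0 in 6 and a median of -0.21. Ndufb4 was below 0 in 13 gates, with the interval below 0 in 8 and a median of -0.78. Its exception was plasma cells, at 18.8 CPM in the C435A library and 14.7 CPM in the WT library. Atp5l was below 0 in 13 gates, with the interval below 0 in 8 and a median of -0.49, and in plasma cells it had 60.9 CPM and 55.1 CPM. Ndufa3 was below 0 in 13 gates with a median of -0.41, and Ndufa12 in 12 with -0.41. Ndufa12 is a complex I accessory subunit and, like Ndufa3, has no known catalytic role.

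Of the 4698 genes, 22 (0.468%) were below 0 in every gate and 38 were above 0 in every gate. Of the 77 members only Ndufs5 was below 0 in every gate (1.30%), and 0 were above 0 in every gate. Ndufs5, Ndufa3 and Ndufa12 were singled out after their values were seen. Ndufb4 lies at chromosome 16, positions 37647170 to 37654453 on the minus strand of GRCm38, and Atp5l at chromosome 9, positions 44912557 to 44920742 on the minus strand. Cox5a, on the same chromosome at 57521274 to 57532426 on the plus strand, was above 0 in 9 of the 14 gates, with a median of 0.13.

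Subunits with tissue isoforms were set out by gate. Cox6a1, the ubiquitous isoform, was read in every gate, from 153 CPM in neutrophils to 436 CPM in melanoma cells of the C435A library and from 201 CPM to 388 CPM in those of the WT library. Cox6a2, known as its heart and muscle partner, had 322 UMIs and 1805 CPM in plasmacytoid dendritic cells of the C435A library and 418 UMIs and 1795 CPM in those of the WT library. That gate held 45 and 49 cells, under the minimum for comparison. NK cells had 19 UMIs and 10.1 CPM, against 4 UMIs and 5.10 CPM, and no other gate exceeded 6.37 CPM in the C435A library or 4.24 CPM in the WT library. Cox6a1 itself had 191 CPM and 206 CPM in plasmacytoid dendritic cells.

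Other tissue isoforms stood at low levels. Cox6b2, known from testis, had 282 UMIs and 60.7 CPM in alveolar macrophages of the C435A library, against 193 UMIs and 36.8 CPM in the WT library (0.72, 0.45 to 0.99). Its partner Cox6b1 was at 565 CPM and 668 CPM there. Cox6b2 was at 22.8 CPM and 11.2 CPM in conventional dendritic cells and at 11.1 CPM and 13.7 CPM in monocytes, the next highest gate of each library. Ndufa4l2, a relative of Ndufa4 known to be induced by low oxygen, had 28 UMIs and 6.56 CPM in plasma cells of the C435A library against 5 UMIs and 1.41 CPM in those of the WT library. In melanoma cells Ndufa4l2 had 3 UMIs and 1.415 CPM in the C435A library against 14 UMIs and 2.986 CPM in the WT library. Its highest gate was thus plasma cells in the C435A library and melanoma cells in the WT library. Cox4i2, an isoform known from lung and low oxygen, had at most 8 UMIs in any gate, whereas Cox4i1 ranged from 568 CPM to 1748 CPM in the C435A library and from 616 CPM to 1803 CPM in the WT library.

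**Figure D4:**
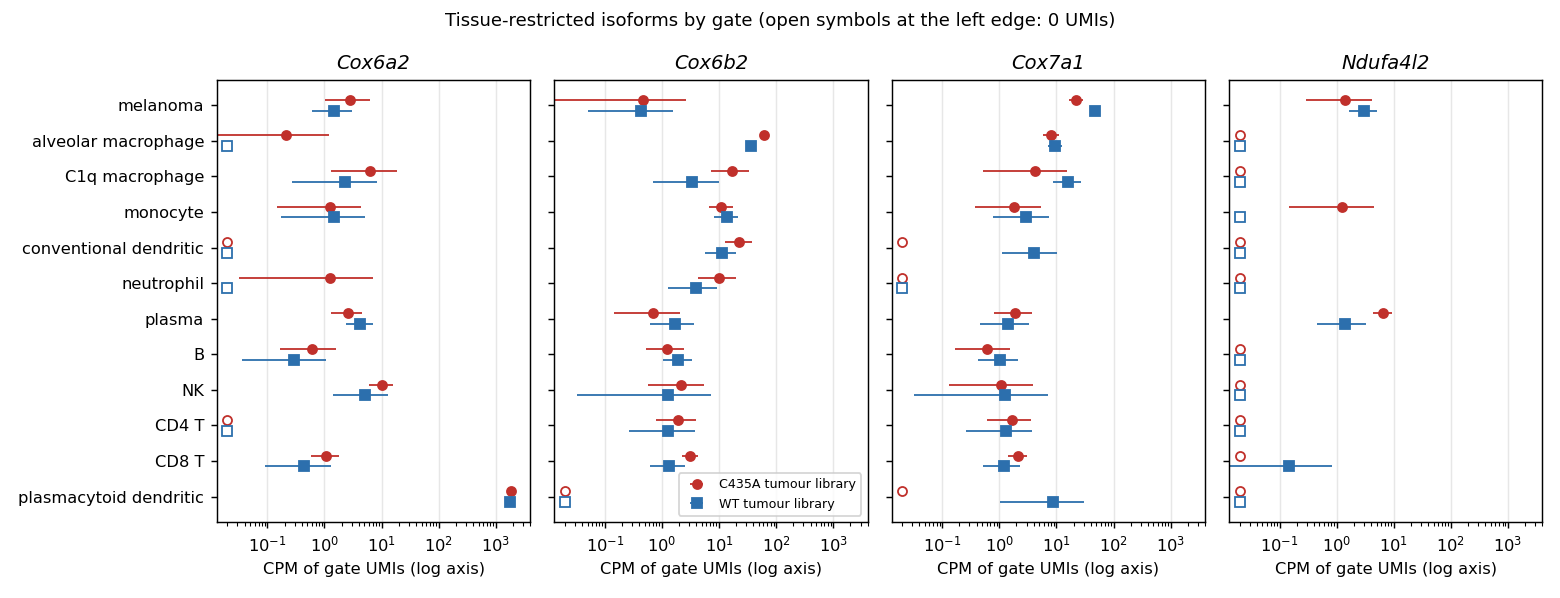
CPM of 4 tissue-restricted subunit isoforms by gate on a log axis, for the C435A (circles) and WT (squares) tumour libraries, with exact 95% Poisson intervals for counting error; open symbols stand for 0 UMIs. Cox6a2 reaches 1805 and 1795 CPM in plasmacytoid dendritic cells, and Cox6b2 is highest in alveolar macrophages at 60.7 and 36.8 CPM.

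Other genes of the pathway were counted in the CD8 T gate by the same 1.5-fold rule, with the background given above. Of 13 subunits encoded in mitochondrial DNA, 2 were higher and 3 lower in the C435A library, with a median of -0.31, opposite in sign to the nuclear subunits. Their summed share of UMIs differed by -0.29 on the log2 scale. Of 33 assembly factors, 0 were higher and 6 lower (median 0.04).

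Other lists were mostly above 0. Of 13 enzymes of the tricarboxylic acid cycle 6 were higher and 0 lower (0.38), and of 77 mitochondrial ribosomal proteins 17 were higher and 1 lower (0.35). Of 6 genes of uncoupling and metabolite exchange 3 were higher and 0 lower (0.58), and of 5 electron carriers 2 and 0 (0.31). Of 12 regulators such as Nrf1, Gabpa and Tfam, 0 were higher and 3 lower (-0.12).

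The lists were also counted between states of CD8 T cells, to be read beside the shares of all genes given above for dividing over naive cells. Dividing over naive, the tricarboxylic acid cycle had 8 of 13 higher and 0 lower in the C435A library (0.71) and 6 and 0 in the WT library (0.47). Mitochondrial ribosomal proteins had 46 higher and 1 lower of 77 (0.67) and 42 and 1 (0.63). Assembly factors had 10 higher and 6 lower of 33 (0.25) and 10 and 5 (0.22), with the counts higher near the share of all genes. Mitochondrially encoded subunits had 0 higher and 1 lower of 12 in each library, with medians of -0.19 and -0.30, and regulators 1 higher and 3 lower of 12 (-0.05) and 2 and 3 (0.18).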

How the data were processed

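The deposited matrices hold counts of UMIs per gene and cell barcode, as whole numbers and not normalized, per the file headers and the values themselves. The authors made them with Cell Ranger on GRCm38, per the submitters' processing notes, in version 7.2.0 per the file headers. The labels' protocols name both BD Rhapsody and 10x Chromium capture, so the platform is uncertain, and the annotation release is not given in the sources used here. Other deposited text tables of the same samples were not used.

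Cell barcodes under 200 genes or 500 UMIs, or with 20% or more of mitochondrial UMIs, were left out, which removed 102 in the C435A library and 157 in the WT library. Scrublet (scanpy 1.11.5) scores removed 844 and 800 barcodes as doublets, at 0.8% per 1000 barcodes. Gates came from summed UMIs of marker genes, with minimums from 2 (T, NK and B cells) to 20 (plasma and melanoma cells). Cells that passed for another lineage were left out in part. The melanoma gate kept every cell that passed its minimum, whatever its other markers. Plasma cells were cleared only of cells that passed for melanoma, plasmacytoid dendritic or T cells. Other gates did not leave out cells with monocyte markers, and T cells needed only more T than NK marker UMIs. A CD8 T cell needed a UMI of Cd8a or Cd8b1 and none of Cd4, and dividing cells took precedence over effector and naive ones. These minimums were set after the marker UMIs were seen. One marker of the naive gate is not reported here. A gate needed 50 cells per library, and a gene 20 UMIs in both libraries together.

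UMIs were summed per gate and divided by the gate total to give CPM. Log2 ratios have exact conditional 95% intervals (scipy 1.17.1), shares exact Clopper-Pearson intervals, both for counting error only. A count of 0 was set to 3 counts in a ratio. A gene was counted as higher or lower at 1.5-fold, since 1 library per group allows no test. Shares of all genes are given for the main setting only. Counts of members under other totals, weightings or gates have no such share beside them. Named were, in each comparison, the 6 highest and 6 lowest members by the interval bound nearest 0 with at least 50 UMIs, the complex II genes, isoform partners, and members whose highest gate was over 4 times the median gate in both libraries. Any other gene named was picked after its values were seen. The members, gene lists and rules were chosen with earlier results of these data known. TMM factors came from edgeR 4.0.16 in R 4.3.3. Levels are not compared between genes, since 3' counts are not scaled to length. The interval and median steps were tested on simulated data.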

Additional observations from a re-analysis of the deposited data

Results flagged for a closer look

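The member medians of the log2 ratio, C435A over WT, had opposite signs in different gates: 0.41 in CD8 T cells, 0.21 in CD4 T cells and 0.34 in plasma cells, against -0.17 in alveolar macrophages and -0.20 in melanoma-gated cells. With 1 library per group this difference between gates was not tested. Cox6a2 was read at 1805 CPM in plasmacytoid dendritic cells of the C435A library and at 1795 CPM in those of the WT library, a gate that was left out of the comparisons because it held 45 and 49 cells.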

How the results depend on the processing

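No paired analysis was possible because each group has 1 library. Of the recomputed values, 2132 kept their direction and size, 235 moved by more than the limits set, and 11, all of single genes, changed sign. Those that answer a comparison follow here with the 11. Counts of members in this section have no share of all genes beside them, and are given only to show how they move.

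Without ribosomal protein, mitochondrially encoded, immunoglobulin and haemoglobin genes in the total, the median ratio of C435A over WT was 0.18 in CD8 T cells (4 members higher), 0.03 in CD4 T cells (0 higher) and 0.07 in plasma cells (2 higher). Effector CD8 T cells then had 0 higher and 5 lower, and naive CD4 T cells 3 lower. The same total gave, for dividing over naive CD8 T cells, a median of 0.50 in the C435A library with 36 higher and 4 lower, and 14 higher in the WT library. For effector over naive CD8 T cells of the C435A library it gave 0.22, with 7 higher and 3 lower. For dividing over naive CD4 T cells it gave 22 higher and 2 lower, and for effector over naive CD4 T cells 9 higher and 1 lower in the C435A library and 1 higher and 5 lower in the WT library. For dividing over nondividing plasma cells it gave medians of 0.28 and 0.27 with 15 higher in each library, and 1 lower in the WT library. Under it Ndufa2 turned to -0.12 (dividing over naive CD8 T cells, C435A library). In dividing plasma cells Uqcrq turned to -0.51 and -0.40, Ndufa4 to -0.30 and -0.26 and Ndufv3 to -0.45 and -0.32 in the C435A and WT libraries, Ndufb2 to -0.43 and Ndufa13 to -0.22 in the C435A library, and Ndufb9 to -0.33 in the WT library. These turns follow from a change of total that moves every ratio of a comparison alike.

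TMM scaling gave 0.10 in plasma cells with 2 higher, 1 higher in CD4 T cells, 1 lower in CD8 T cells and 5 lower in alveolar macrophages. Weighting each cell alike gave 0.25 in CD8 T cells with 5 higher. It gave 1 lower in B cells, 11 lower in C1q macrophages, 10 lower in melanoma cells, 3 higher in neutrophils, 6 higher in dividing and 0 higher in effector CD8 T cells, and 0 lower in plasma cells. Atp5d in melanoma cells turned to -0.06. Among states it gave 1 lower for dividing over naive CD8 T cells and 1 higher for effector over naive CD8 T cells in the WT library, 0 lower for the second of these contrasts and for dividing plasma cells in the C435A library, 3 lower for effector over naive CD4 T cells and 1 lower for dividing alveolar macrophages in the WT library. Weighting the 3 CD8 T states alike gave 0.02 and 0 higher.

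Keeping doublets gave 1 lower in CD8 T cells, 0 higher in dividing CD8 T cells, 1 lower for dividing over naive CD8 T cells in the WT library, 5 higher for effector over naive CD4 T cells in the WT library, and 1 higher and 1 lower for dividing alveolar macrophages in the WT library. One more UMI in every gate gave 1 lower in CD4 T cells and in alveolar macrophages, 2 higher and 4 lower in conventional dendritic cells, 8 lower in naive CD4 T cells, 2 lower for effector over naive CD8 T cells, 3 lower for dividing over naive CD4 T cells and 1 lower for dividing B cells and alveolar macrophages in the C435A library, and 3 lower for effector over naive CD4 T cells in the WT library. A minimum of 50 UMIs gave 0 higher in NK and conventional dendritic cells, 1 lower in B cells and alveolar macrophages, and 0 lower in plasma and naive CD4 T cells. A minimum of 1 UMI in each library gave 2 higher in B, NK, alveolar macrophage and effector CD8 T gates, 3 higher in C1q macrophages, 1 higher in melanoma, naive CD4 T and neutrophil gates, 1 lower in CD4 T cells and 4 lower in plasma cells.

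The log2 ratio of the highest over the lowest gate was 2.34 and 2.49 with each cell weighted alike, 2.23 and 2.20 with doublets kept, 2.37 and 2.38 with one more UMI per gate, and 2.46 and 2.45 with the reduced total, in the C435A and WT libraries. Unless stated otherwise, the cause was not tested. The alternatives for contrasts of dividing and resting cells outside CD8 T cells, and for CD4 T states, were chosen after seeing the data. Depth limits the small gates: in conventional dendritic, C1q macrophage and melanoma cells each library had 113 cells or fewer.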
